A study of Arabidopsis thaliana with 6 samples.

Results

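The 6 genes described here, LTP1 (AT2G38540), LTP2 (AT2G38530), LTP3 (AT5G59320), LTP4 (AT5G59310), LTP5 (AT3G51600) and LTP6 (AT3G08770), encode non-specific lipid transfer proteins of Arabidopsis thaliana. They were chosen by gene ID from a table of 33331 genes, and all 6 were listed in it. The measurement was RNA immunoprecipitation followed by sequencing (RIP-seq), which sequences the RNA bound to a protein that is pulled out of a lysate by its tag. This protein was AtGRP7, a clock-regulated RNA-binding protein, fused to green fluorescent protein (GFP). All plants carried AtGRP7::AtGRP7-GFP, that is the fusion under the AtGRP7 promoter, in the grp7-1 mutant background, so both time points share the transgene and the mutation. Plants were raised for 16 days under 12 h light and 12 h dark, moved to continuous light (LL), and aerial tissue was fixed with 1% formaldehyde after 24 h (LL24, subjective morning) or 36 h (LL36, subjective evening). Each time point had 3 biological replicates, each a bulk of several plants. The comparison of LL36 with LL24 asks whether the RNAs recovered with AtGRP7-GFP differ between subjective morning and evening.

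Lipid transfer proteins are small, secreted, basic proteins whose conserved cysteines form disulfide bonds around a tunnel that takes up fatty acids and other lipids. In leaves and stems several of them are made mainly in the epidermis, where they have been linked to the cuticle, the wax and cutin layer that seals the plant surface. Others have been linked to defence, to drought and cold responses, and to the growth of pollen tubes.

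LTP1 and LTP2 lie next to each other on chromosome 2, both on the plus strand. In TAIR10.1, LTP2 spans chr2:16128176-16129399 and LTP1 chr2:16130290-16131240, with 890 bases and no annotated gene between them. LTP3 and LTP4 are neighbours on chromosome 5 and point away from each other. LTP4 spans chr5:23924990-23925957 on the minus strand and LTP3 chr5:23928954-23929816 on the plus strand, with 2996 bases and no gene between them. LTP5 (chr3:19138338-19139423) and LTP6 (chr3:2664069-2664888) are both on the minus strand of chromosome 3, far apart. All 6 genes are protein-coding with 2 exons, and none overlaps another annotated gene.

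The genes share a structure in which the intron sits just before the stop codon. In LTP1, LTP2, LTP3, LTP4 and LTP5 the second exon holds only 10 coding bases, and in the LTP6 transcript with the longest coding sequence it holds 22. The first exon holds 347 coding bases in LTP1, LTP2 and LTP5. The spliced coding sequence across this junction is shown for the 6 genes because it makes both the shared structure and the base differences between the neighbours visible. The last 20 coding bases of exon 1 are in lower case and the first 10 coding bases of exon 2 in capitals, from the RefSeq annotation of TAIR10.1.
LTP1, chr2:16130745-16130764 joined to chr2:16130884-16130893, plus strand: accagcaccaactgcaaaacCGTGAGGTGA
LTP2, chr2:16128808-16128827 joined to chr2:16128939-16128948, plus strand: gccagcaccaactgcaacacCGTGAGGTGA
LTP3, chr5:23929369-23929388 joined to chr5:23929483-23929492, plus strand: atgagcactaactgcaacaaCATCAAGTGA
LTP4, chr5:23925444-23925463 joined to chr5:23925296-23925305, minus strand: acgagcaccaactgcgccacCATCAAGTGA
LTP5, chr3:19138778-19138797 joined to chr3:19138661-19138670, minus strand: gccagaaccaactgtaacacCGTCAGGTGA
LTP6, chr3:2664453-2664472 joined to the first bases of chr3:2664330-2664351, minus strand: ccttccactgactgcgacagTGAGACAAGC
The capitals are identical within each neighbouring pair, and they end in a TGA stop codon in all genes but LTP6.

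Over the whole coding sequence, LTP1 and LTP2 were 82.4% identical at the nucleotide level and LTP3 and LTP4 84.5%. LTP5 was closest to LTP1, at 67.8%. LTP6 was the most distant, at 49.9% to 53.0% to the others. The 3′ untranslated regions (UTRs) were less alike, at 57.8% for LTP1 and LTP2 and 61.5% for LTP3 and LTP4. Reads were 100 nt long, and not a single 100-nt stretch of any of the 6 genes' annotated transcripts recurred in the RefSeq transcripts of another gene, so untrimmed, error-free reads could tell the members apart. Shorter reads, left after quality trimming, were not checked.

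Values were deposited as TPM, a transcript's share of all transcripts after correction for its length. This unit does not retain the read counts. The study gives read statistics of its RIP-seq libraries in its supplement, and these were not used here. The listed genes took 9.59% to 16.6% of 1000000 TPM per library, lowest in LL36 replicate 3. Levels below are scaled TPM, meaning listed TPM rescaled to sum to 1000000 and divided by a trimmed-mean factor per library, which ranged from 0.808 to 1.22. Every value after ± is the SD over the 3 libraries of a time point (n = 3), and every exact permutation test compares 3 with 3 libraries and is two-sided. The transcript of AtGRP7 itself, whose reads include those of the transgene, was higher at LL36 by 6.22 on the log2 scale (SE 0.13, limma adjusted p = 1.9e-06). The root markers CASP1, NRT2.1 and TIP2;3 were at 0 in most libraries and nowhere above 0.135 scaled TPM, while PYK10, the fourth marker of the root list, lay between 7.63 and 13.4 scaled TPM in every library (means 11.3 at LL24 and 8.20 at LL36, adjusted p = 0.050, not called). The leaf mesophyll markers RBCS1A, CAB1 and RBCS3B summed to 24870 or more in every library. RBCS1A and RBCS3B were called lower at LL36 (log2 differences -0.48 and -0.45, limma adjusted p = 0.040 and 0.036). CAB1 was not called (0.058, limma adjusted p = 0.79). The guard cell markers KAT1, MYB60 and FAMA were below the limit and were not tested. Of the study's wild-type poly(A) RNA nothing was analysed here, nor any input RNA or mock precipitate, so a transcript's amount and its recovery with AtGRP7-GFP cannot be told apart, nor can fewer cells of a type from less RNA per cell.

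LTP1 was by far the most abundant member. Its level was 893.8, 804.1 and 852.9 scaled TPM in LL24 replicates 1 to 3 and 434.0, 470.6 and 515.1 in LL36 replicates 1 to 3. The groups were widely separated, since the lowest LL24 library lay far above the highest LL36 library. LTP1 ranked 33rd of the listed genes at LL24 and 60th at LL36. LTP1 is a cell wall protein of the epidermis that also binds calmodulin.

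LTP5, linked in earlier work to pollen tube growth, was second. Its level was 88.96, 70.97 and 85.9 scaled TPM in the LL24 libraries and 67.1, 64.2 and 67.9 in the LL36 libraries. The groups did not overlap, although LL24 replicate 2 came close to the LL36 libraries. LTP6 followed with 43.9, 44.5 and 68.6 scaled TPM at LL24 and 37.8, 43.5 and 40.1 at LL36. Its groups only just failed to touch, and LL24 replicate 3 stood above the other 5 libraries.

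LTP2, which has been placed at the border of cuticle and cell wall, had 17.03, 19.04 and 24.6 scaled TPM at LL24 and 19.9, 24.3 and 25.2 at LL36. These groups overlapped. LTP2 was thus recovered at a small part of the level of its neighbour LTP1 in every library. LTP4 had 7.45, 10.9 and 11.6 scaled TPM at LL24 and 6.12, 14.1 and 15.6 at LL36. LTP3, which has been linked to abscisic acid and freezing and drought tolerance, was the lowest member, with 5.76, 7.63 and 9.59 scaled TPM at LL24 and 1.61, 5.61 and 6.82 at LL36. For both genes of this pair the groups overlapped, and LL36 replicate 1 was the lowest of the 6 libraries and LL24 replicate 1 among the lower ones.

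**Figure D1:**
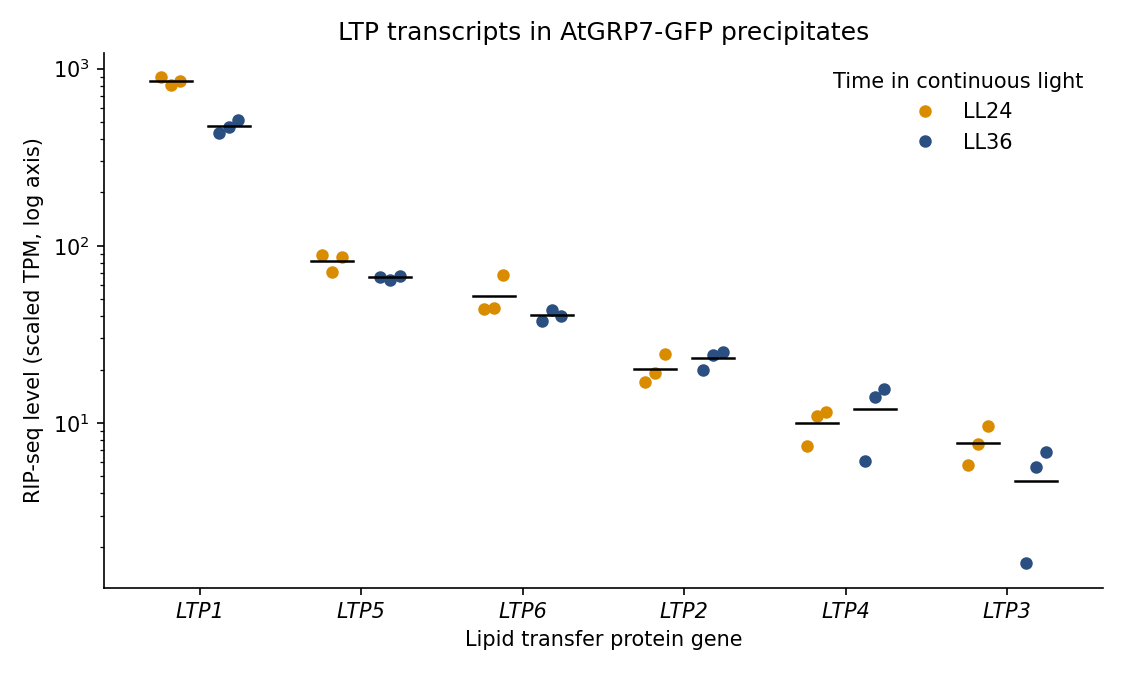
Level of each LTP transcript in the AtGRP7-GFP precipitates in scaled TPM on a log axis, with 1 point per library (3 at LL24, 3 at LL36, replicates 1 to 3 from left to right) and a bar at the group mean. LTP1 lies far above the rest, from 434.0 to 893.8 scaled TPM, and its time points separate, while those of LTP2, LTP3 and LTP4 overlap.

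The order of the mean levels was the same at both time points: LTP1, LTP5, LTP6, LTP2, LTP4, LTP3. At LL24 LTP1 was 10.4-fold above LTP5, and at LL36 7.13-fold. The library ranges of neighbours in this order did not overlap at either time point, with the exception of LTP4 and LTP3, whose ranges overlapped at both. In each of the 6 libraries, however, LTP4 was above LTP3.

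Of the 3774 genes with a mean level of 5 scaled TPM or more, limma called 1366 different between LL36 and LL24 at a Benjamini-Hochberg adjusted p under 0.05, or 36.2%. Of all tested genes 16.6% were called higher and 19.6% lower at LL36. All 6 members passed the limit and 1 of them, LTP1, was called, which is no larger a share than that of all tested genes. In 3 of the 6 members (LTP1, LTP5 and LTP6) no LL36 library reached into the LL24 range, against 50.7% of the tested genes. The median log2 difference of the members was -0.31 and that of all tested genes 0.033.

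LTP1 fell from 850.3 ± 44.9 scaled TPM at LL24 to 473.2 ± 40.6 at LL36, a ratio of 0.557. The log2 difference was -0.85 (SE 0.10, 95% interval -1.08 to -0.61, limma adjusted p = 0.00081). It was lower in each LL36 library than in any LL24 library. A more negative difference was measured for 381 of the tested genes. LTP1 was called as lower in all 17 alternative settings (adjusted p = 0.00031 to 0.013).

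LTP5 went from 81.9 ± 9.63 to 66.4 ± 1.98 scaled TPM. Its log2 difference of -0.29 (SE 0.11) had a 95% interval of -0.55 to -0.038, not adjusted for the number of genes, and did not pass after adjustment (limma adjusted p = 0.073). It passed without LL24 replicate 2 (-0.40, adjusted p = 0.027) and on the deposited scale with trimmed-mean factors (-0.32, adjusted p = 0.048, with a range of 0.027 to 0.31 over the 17 settings). LTP6 went from 52.3 ± 14.1 to 40.5 ± 2.91 scaled TPM, a log2 difference of -0.33 (SE 0.18, 95% interval -0.76 to 0.094, limma adjusted p = 0.19). Without LL24 replicate 3 the difference of LTP6 was -0.15.

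LTP2 went from 20.2 ± 3.90 to 23.1 ± 2.82 scaled TPM. Its log2 difference was 0.19 (SE 0.16, 95% interval -0.18 to 0.57, limma adjusted p = 0.37). The lower end of this interval lies above the upper end of that of LTP1.

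LTP3 went from 7.66 ± 1.92 to 4.68 ± 2.73 scaled TPM, a log2 difference of -0.73 (SE 0.41, 95% interval -1.71 to 0.25, limma adjusted p = 0.21). LTP4 went from 9.98 ± 2.22 to 11.9 ± 5.09 scaled TPM, a log2 difference of 0.16 (SE 0.33, 95% interval -0.63 to 0.96, limma adjusted p = 0.73). LL36 replicate 1 moved both. Without it the difference was -0.24 for LTP3 (adjusted p = 0.45) and 0.55 for LTP4 (adjusted p = 0.086), and the sign of LTP4 turned without LL24 replicate 1 (-0.027) or LL36 replicate 3 (-0.064).

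**Figure D2:**
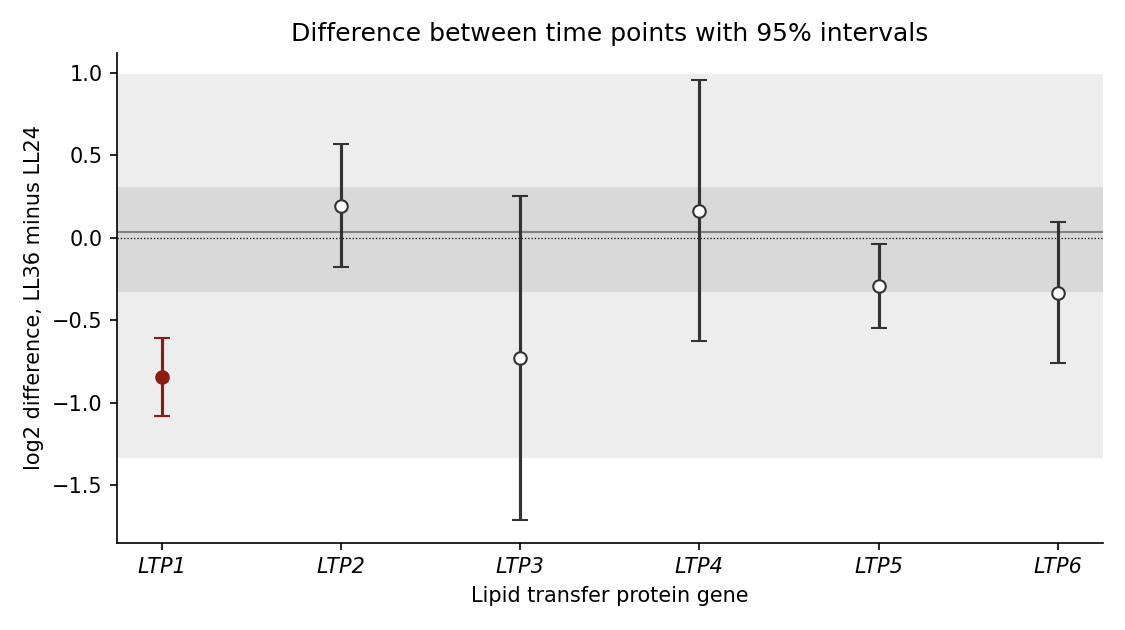
Difference between LL36 and LL24 on the log2(scaled TPM + 1) scale for each LTP gene, with limma's 95% intervals (bars) and the gene called after adjustment as a filled point. The dark grey band runs from the 25th to the 75th percentile of the 3774 tested genes (-0.32 to 0.30) and the light grey band from the 5th to the 95th (-1.33 to 0.99). LTP1 at -0.85, LTP3 at -0.73 and LTP6 at -0.33 lie outside the dark band, and LTP1 has the shortest interval.

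Ratios between members within a library do not depend on the scaling between libraries, so they compare the members directly. LTP1 exceeded LTP2 52.5, 42.2 and 34.7 times in LL24 replicates 1 to 3. At LL36 the same ratio was 21.8, 19.4 and 20.5. All LL36 ratios were below all LL24 ratios, and the log2 ratio differed by -1.05 between the time points (SDs 0.30 and 0.086; p = 0.1 by the exact permutation test, the smallest p that 3 against 3 libraries allow).

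In the other neighbouring pair the ratio also separated the time points. The ratio of LTP3 to LTP4 was 0.772, 0.701 and 0.828 at LL24 and 0.263, 0.399 and 0.436 at LL36, again without overlap. Its log2 ratio differed by -1.10 (SDs 0.12 and 0.39; p = 0.1 by the exact permutation test). LL36 replicate 1, low for both genes, gave the lowest ratio, and without it the difference was -0.87. In each pair, then, the ratio separated the time points, although among single genes only the fall of LTP1 was called. LTP3 and LTP4 were the lowest members, with 0.219 to 1.62 and 0.833 to 2.13 TPM as deposited. The read support of their ratio was not checked. The direction of a ratio depends on which gene is put on top. LTP1, the higher gene of its pair, was closer to its neighbour at LL36. LTP3, the lower gene of its pair, was further from its neighbour.

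**Figure D3:**
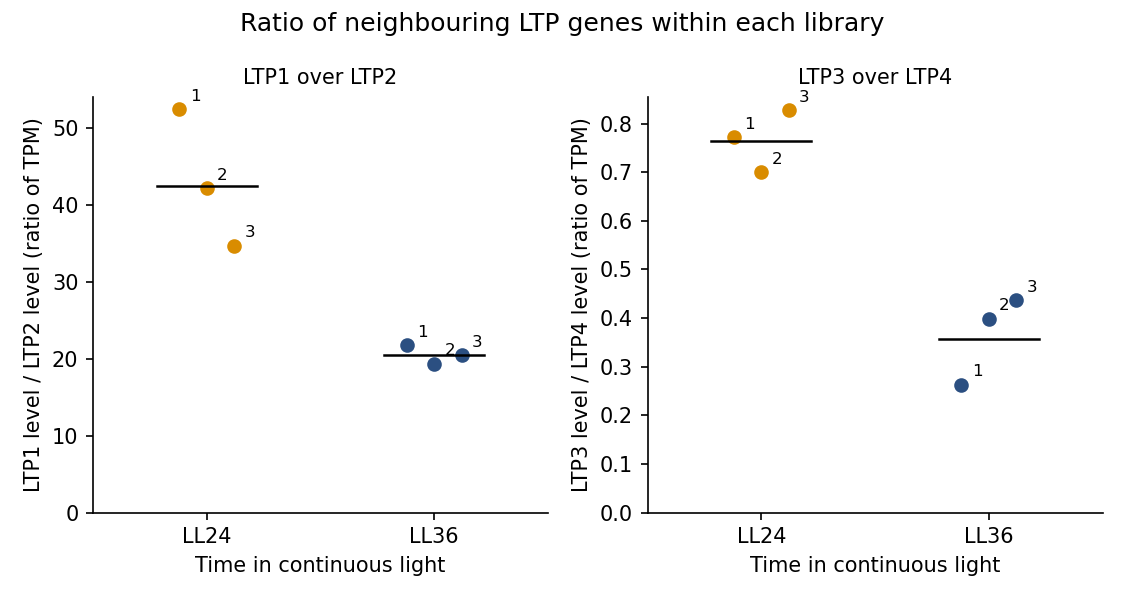
Ratio of the TPM of LTP1 to LTP2 (left) and of LTP3 to LTP4 (right) within each library at LL24 and LL36, numbered by replicate, with bars at the geometric means of 42.5 and 20.5 (left) and 0.765 and 0.358 (right). Both axes start at 0, and in both panels the 3 LL36 libraries lie below the 3 LL24 libraries.

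Of the 15 possible pairs, 7 had ratios that did not overlap between the time points. None reached an adjusted p below 0.21 (exact permutation tests, Benjamini-Hochberg over 15 pairs). With no unadjusted p below 0.1 possible, no pair could have passed 0.05. Besides the neighbours, the pairs without overlap were LTP1 over LTP4 (log2 difference -1.02), LTP1 over LTP5 (-0.55), LTP2 over LTP3 (1.13), LTP2 over LTP5 (0.50) and LTP2 over LTP6 (0.54). Without LL36 replicate 1 the difference of LTP2 over LTP3 was 0.59, and without LL24 replicate 1 that of LTP2 over LTP5 was 0.32. The ratio of LTP5 to LTP6 differed little, with geometric means of 1.59 at LL24 and 1.64 at LL36. The 15 pairs share members, so they are not separate observations. How often pairs of other genes separate was not computed, while 50.7% of the single tested genes did.

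Because LTP1 dominated, the family sum followed it. The 6 members together had 1057, 957.1 and 1053 scaled TPM in the LL24 libraries and 566.5, 622.3 and 670.7 in the LL36 libraries. The means were 1022 ± 56.5 and 619.8 ± 52.2, a ratio of 0.606 (exact permutation p = 0.1). LTP1 made up 83.2% ± 1.93 of the sum at LL24 and 76.3% ± 0.630 at LL36, without overlap. The share of LTP2 went from 1.98% ± 0.360 to 3.72% ± 0.197 and that of LTP5 from 7.996% ± 0.520 to 10.8% ± 0.938, also without overlap (exact permutation p = 0.1 for each). Shares of a sum are linked, so a fall of LTP1 alone raises those of the others. The mean level of LTP5 itself was lower at LL36, though not called. Without LTP1, the other 5 members summed to 172.1 ± 24.9 at LL24 and 146.6 ± 12.4 at LL36 (exact permutation p = 0.2).

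For each member the 3 tested genes with the most similar profile over the 6 libraries were looked up by Pearson correlation of log2(scaled TPM + 1). With 3 libraries a time point such correlations mostly follow the time point or single libraries, and they are given as a description. LTP1 was most like AT1G50020 (r = 0.999), AT1G22410 (r = 0.997), a class II DAHP synthetase of the shikimate pathway, and VSP2 (r = 0.995), a vegetative storage protein, and 18 tested genes had r above 0.99. No tested gene reached this value for another member. LTP5 was most like SQD1, CRY1 and STOMAGEN (r = 0.977 to 0.98), of which CRY1 encodes a blue light receptor and STOMAGEN a peptide that promotes stomatal development. LTP3 was most like ARLA1D, MIR472 and RAB18 (r = 0.977 to 0.986). RAB18 is a dehydrin induced by abscisic acid, and its level of 15.1 at LL24 and 10.3 at LL36 did not pass the test (limma adjusted p = 0.18).

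A wider list of 28 other lipid transfer protein genes and relatives gave the background within the superfamily. Of these, 13 passed the limit, 7 were called lower and 2 higher at LL36, and 4 did not pass the test, and the median over the 13 was -0.48 on the log2 scale. The 9 called genes kept their direction in every alternative setting that tested them, but without trimmed-mean factors the calls were fewer, at 5 lower and 0 higher, and with no limit there were 3 lower and 0 higher. Over all tested genes these settings called 505 lower and 233 higher of 3774, and 1248 lower and 915 higher of 22084. Within the list the largest fall was that of AT5G48490, a DIR1-like gene, from 152.3 ± 29.7 to 24.7 ± 7.45 scaled TPM, a log2 difference of -2.60 (SE 0.22, limma adjusted p = 0.00018). DIR1, which is needed for long-distance signalling in systemic acquired resistance, fell from 17.7 ± 1.83 to 7.18 ± 1.63 scaled TPM, by 1.21 on the log2 scale (adjusted p = 0.0018). AT5G05960 fell by 0.93 and AT1G48750 by 0.79, the latter close to the threshold (adjusted p = 0.047) and called in 6 of 15 alternative settings.

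The other 3 genes called lower, named after their values were seen, were LTP7, LTPG1 and LTPG2. LTP7 (AT2G15050) fell from 40.7 ± 0.707 to 25.01 ± 3.41 scaled TPM, by 0.69 on the log2 scale (adjusted p = 0.0034), and was called in all 15 settings in which it was tested. LTPG1, a membrane-anchored lipid transfer protein involved in wax export, fell by 0.48 (adjusted p = 0.029, called in 8 of 17 settings) and its relative LTPG2 by 0.51 (adjusted p = 0.017, called in 11 of 15 settings). The 2 genes called higher were AT2G45180, with 468.7 ± 70.4 scaled TPM at LL24 and 677.3 ± 11.0 at LL36 (log2 difference 0.54, adjusted p = 0.014, called in 14 of 17 settings), and EARLI1, close to the limit and the threshold (log2 difference 0.52, adjusted p = 0.049, called in 5 of 15 settings). AT2G45180 was next to LTP1 in level within the superfamily, and the order of these genes changed with the time point. LTP1 was the higher of them at LL24 and the lower at LL36.

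**Figure D4:**
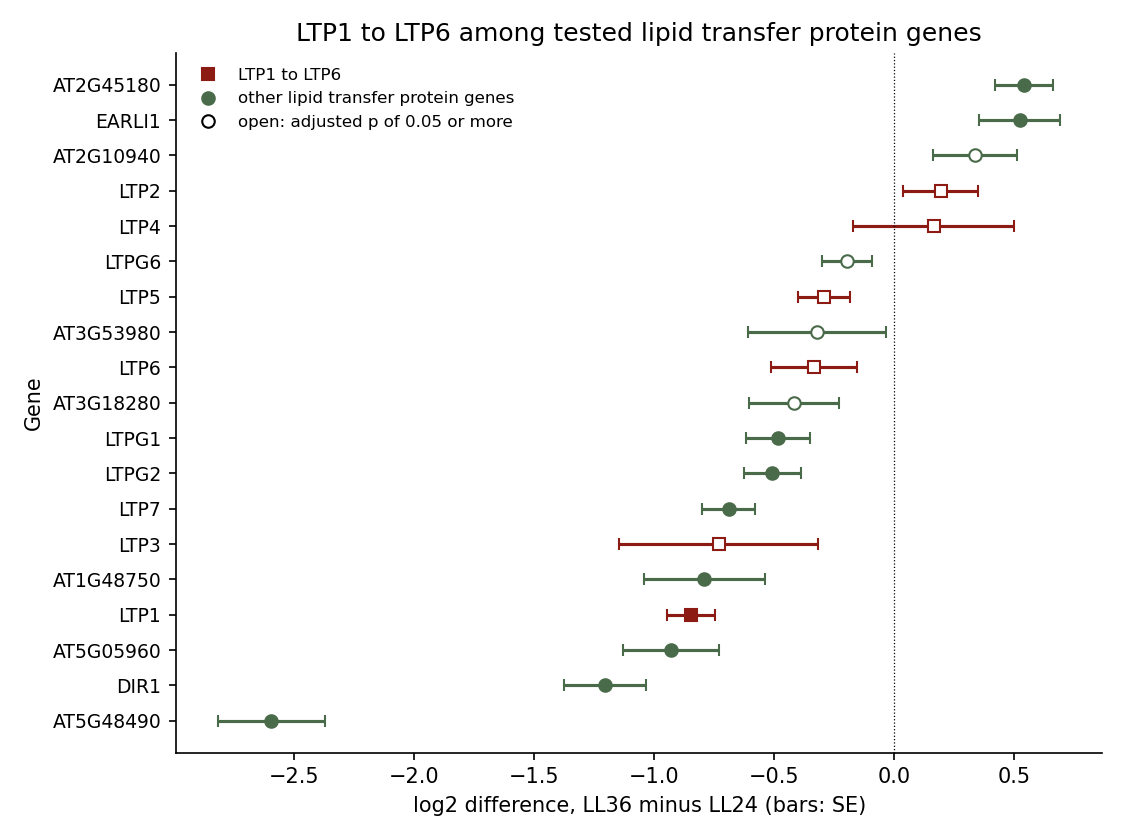
Difference between LL36 and LL24 on the log2(scaled TPM + 1) scale with its SE for LTP1 to LTP6 (squares) and the 13 tested genes of the wider lipid transfer protein list (circles), where filled symbols passed the limma test. LTP1 at -0.85 lies among the genes that fell, between AT1G48750 at -0.79 and AT5G05960 at -0.93, and AT5G48490 at -2.60 is the lowest.

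Most genes of the cuticle were recovered at low levels, with a median of 2.91 scaled TPM in the wax list and 1.49 in the cutin list. DEWAX of the wax list, named after its values were seen, stood above this at 48.2 scaled TPM at LL24 and 48.5 at LL36 (limma adjusted p = 0.98). Of 21 genes of wax synthesis, export and control, 5 passed the limit and 1 was called, lower at LL36. With a limit of 1, 17 were tested and 7 called lower, and 4 of 17 were called lower when the 10 most abundant genes were left out of the rescaling, with 0 called higher in both. Over all tested genes these settings called 1330 of 9890 and 1241 of 10326 lower. The gene called at the limit of 5 was KCS6, the condensing enzyme that elongates wax precursors, with 12.9 ± 0.380 scaled TPM at LL24 and 7.14 ± 1.08 at LL36 (log2 difference -0.78, SE 0.12, limma adjusted p = 0.0030). Of 14 cutin genes 1 passed the limit, and it was called. CYP86A2, a fatty acid hydroxylase of cutin synthesis, fell from 7.20 ± 0.845 to 4.095 ± 0.263 scaled TPM, by 0.68 on the log2 scale (adjusted p = 0.0069). This call was lost after rescaling without a factor (adjusted p = 0.062). With a limit of 1 there were 2 of 9 tested cutin genes called lower, CYP86A2 and LACS2, the latter named after its values were seen. The epidermis markers PDF1, FDH, PDF2 and ATML1 summed to 37.6 to 46.0 scaled TPM at LL24 and 34.6 to 46.9 at LL36. Only PDF1 and FDH of them were tested. FDH fell by 0.59 (adjusted p = 0.0077) and PDF1 had a log2 difference of 0.32 that did not pass (adjusted p = 0.14). PDF2 had means of 4.57 scaled TPM at LL24 and 2.74 at LL36, and ATML1 2.51 and 1.67. In FDH, PDF2 and ATML1 no LL36 library reached into the LL24 range, though in ATML1 only just. PDF1, the largest part of the sum, was the only one of these markers with a higher mean at LL36, so the sum hides the lower levels of the others. The part of the epidermis in the difference of LTP1 was not tested.

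Sequence near the gene start was compared as a description. The window ran from 250 bases before to 50 after the annotated start, both strands were searched, and 27443 protein-coding genes gave the background. The evening element (AAAATATCT), which is in 2.82% of the windows, and the G-box (CACGTG), in 7.68%, were in none of the 6. The ABRE core (ACGTG), a part of the G-box found in 26.7% of the windows, and the DRE core (CCGAC), in 15.0%, were both in LTP2 and in no other member. The CCA1-binding site (AAAAATCT), in 7.88% of the windows, was in LTP3 and LTP5. The L1 box of epidermal genes (TAAATGCA or TAAATGTA), in 5.1%, was in LTP4 alone, after the annotated start. The matches of LTP2 are shown because its neighbour LTP1 has neither, and those of LTP3 and LTP5 because the site is bound by a clock protein, with the match in capitals.
LTP2 ABRE core, chr2:16128089-16128118, plus strand: gtccacataaagtCACGTtggggtttcagg
LTP2 DRE core, chr2:16128127-16128156, plus strand: aaagattcacaccGTCGGattgggatttcc
LTP3 CCA1-binding site, chr5:23928708-23928737, plus strand: ttgtggaacaaAAAAATCTagaaatcattt
LTP5 CCA1-binding site, chr3:19139618-19139647, minus strand: actctcagaaaAGATTTTTcatcaaacatg
In 3 of the 4 the capitals are the reverse complement of the motif as spelled above.

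The letters of 5 pentamers, which the study drew from its crosslinking data for AtGRP7 in 3′ UTRs, were counted in the 3′ UTRs of the members, with overlapping matches counted. They were TTCTG, then TTGTA, then GTGTT, then TGTTT and finally TCTGT. LTP5 had 8 matches in 323 bases, or 2.51 per 100 positions, above 84.6% of 22726 genes with a 3′ UTR of 50 bases or more, whose median was 1.39. LTP1 had 4 matches in 347 bases (1.17 per 100 positions), LTP2 4 in 451 (0.89), LTP4 4 in 306 (1.32) and LTP3 2 in 324 (0.62), and LTP6 had none in 200. LTP1, LTP2, LTP3, LTP4 and LTP6 were thus all below the median. LTP1 and LTP5 are on the study's list of 858 transcripts crosslinked at LL36, and the other members are not. Their own sequence may therefore have entered the choice of the pentamers, so the counts of LTP1 and LTP5 are not independent of it. The 30 bases with most pentamer letters are shown for LTP5, which had the most matches, and for the neighbours LTP1 and LTP2, with the pentamers in capitals.
LTP5, chr3:19138526-19138555, minus strand: attattgttGTGTTTctagattttGTGTTT
LTP1, chr2:16131026-16131055, plus strand: gtgGTGTTcttgttatatgggtttgTCTGT
LTP2, chr2:16129231-16129260, plus strand: tatcaagtaaacaacatttTGTTTtTGTTT
Such letters are common in 3′ UTRs, and a match is not a binding site.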

How the data were processed

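RIP-seq libraries of 3 biological replicates per time point were analysed. Per the labels and the methods, bead washes contained 500 mM NaCl and 2 M urea. Total recovered RNA, not poly(A)-selected, was sequenced from single ends of 100 nt. The authors used Sickle to trim at quality 20 and keep reads of 50 nt or more, aligned them to the AtRTD transcripts with STAR 2.5.2a, estimated abundances with Salmon 0.8.2, summed them per gene with tximport, and left out rRNA, mitochondrial and chloroplast genes. The submitters' notes name the build TAIR10, whose gene IDs are those of the TAIR10.1 annotation used here for names, positions and sequences (RefSeq). Of the table's IDs 32811 of 33331 matched. For the strand setting of Salmon the sources used here give no statement.

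The deposited TPM were left by the authors relative to more RNA than is listed. Another 6 columns, headed Col-2 (the wild type) with LL24 or LL36, could be matched to none of the samples given here and were not used. Per the study's methods Col-2 poly(A) RNA was the reference for enrichment in the precipitate, so no enrichment was computed. Listed TPM were rescaled to sum to 1000000, because the limit of TPM 5 in the study's methods fits that scale, and divided by unweighted trimmed-mean factors (30% of ratios and 5% of abundances trimmed at each end). Genes with a mean of 5 or more were fitted as log2(scaled TPM + 1) with limma 3.58.1 in R 4.3.3 (trend on mean expression, time point as the only term, two-sided, Benjamini-Hochberg at 0.05 over all tested genes). This scale slightly understates changes of low genes. Every adjusted p of a gene is from limma. The fit was tested on simulated data. Ratios and sums were compared with exact permutation tests over the 20 splits of 6 libraries, which give no p below 0.1. Read counts and depth were not used, so precision was taken from the spread of 3 libraries.

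The members and gene lists were chosen with earlier results of these data known. Named genes were the members, AtGRP7, the cell type markers and the 3 genes most similar by correlation to each of LTP1, LTP3 and LTP5. Of each list up to 4 called genes were named by size of difference, and those named outside this rule are marked. Sequence identity was computed with Biopython 1.88 from global alignments of the transcript with the longest coding sequence. Protein sequences were not used here. The alternatives were 5 other scalings, 2 pseudocounts, 2 limits, no variance trend, the replicate number as a block, and leaving out each library. Whether the numbers shared between time points pair the libraries is unknown, and the main fit did not use them as pairs.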

Additional observations from a re-analysis of the deposited data

How the results depend on the processing

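LTP1 was called lower at LL36 in each of the 17 alternative settings (6 that left out a library and 11 others), with log2 differences of -1.19 to -0.78. The signs of LTP2, LTP3, LTP5 and LTP6 held in every setting in which they were tested, and none of LTP2, LTP3 and LTP6 was ever called. The number of called genes was 1366, and it was 738 after rescaling without a factor, 126 with the TPM as deposited, 347 on the deposited scale with trimmed-mean factors, 2243 when the 10 most abundant genes were left out of the rescaling, 2343 at a mean of 1 or more and 2163 with no limit, where fewer or more genes were tested except in the first. The shares called higher moved from 45.8% to 31.6% after rescaling without a factor and to 19.8% with the TPM as deposited, where the median log2 difference of all genes was -0.26. On the deposited scale LTP1, LTP5 and LTP6 alone reached the limit, and with trimmed-mean factors 2 members were called, LTP5 at -0.32 having joined LTP1.

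Leaving out 1 library at a time gave 988 to 1194 called genes, 1 to 2 called members, and log2 differences of -0.91 to -0.78 for LTP1, 0.071 to 0.31 for LTP2, -1.05 to -0.24 for LTP3, -0.064 to 0.55 for LTP4 (-0.027 without LL24 replicate 1), -0.40 to -0.25 for LTP5 and -0.46 to -0.15 for LTP6. The log2 ratio of LTP1 to LTP2 differed by -1.20 to -0.90 and that of LTP3 to LTP4 by -1.24 to -0.87, and the family sum by -0.78 to -0.66. Among the other ratios, the sign turned for LTP1 over LTP3 (-0.51 to 0.41, with -0.51 without LL36 replicate 1 and -0.098 without LL24 replicate 3), LTP2 over LTP4 (-0.29 to 0.22, with -0.29 without LL36 replicate 1 and -0.078 without LL24 replicate 2), LTP3 over LTP5 (-1.004 to 0.027) and LTP3 over LTP6 (-0.98 to 0.014), both without LL36 replicate 1, and LTP5 over LTP6 (-0.13 to 0.22, with -0.13 without LL24 replicate 3 and -0.013 without LL36 replicate 1). The cause was not tested.

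Over all tested genes same-numbered libraries did not deviate together (r = -0.10 to -0.042, and genes are not independent replicates). Such values cannot exclude a shared batch, so whether the numbers pair the libraries is unknown. LTP2, LTP3 and LTP4 rose from replicate 1 to 2 to 3 at both time points, while LTP1, LTP5 and LTP6 did not. With the replicate block 1057 genes were called and, of the members, again LTP1 (adjusted p = 0.0068), while LTP3 came to an adjusted p of 0.084.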
